A study of Mus musculus with 12 samples.

Results

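Repeated morphine was compared with saline in mouse striatum by setting 3 arrays of mice given saline and then morphine at each induction trial against 6 arrays of saline mice, 9 of the 12 arrays in the series. The arrays were picked by their titles, and every row of the deposited table with exactly 1 gene symbol was used, 21780 probe sets for 19935 genes. All animals were male Swiss-Albino mice 2 months old. Induction took 6 trials on alternate days, each morphine injection was 20 mg/kg, and RNA was taken 1 h after a challenge injection given 7 days after the last trial. Each Affymetrix Mouse Gene 1.0 ST array carried striatal RNA pooled from 4 animals, so the spread between arrays is a spread between pools. The labels conflict on what the saline mice received at challenge. Their source names give saline, and the protocol text gives morphine to every animal, so the comparison holds either the challenge and the earlier injections together or the earlier injections alone. The third group, 3 arrays of mice given sodium butyrate (300 mg/kg), an inhibitor of histone deacetylases, before each morphine injection, is used only to estimate the spread and for values side by side.

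Morphine acts on the mu opioid receptor, a receptor coupled to inhibitory G proteins. In the striatum it disinhibits dopamine release, and repeated injections sensitise the locomotor response. Most striatal neurons are projection neurons of the direct pathway, marked by the dopamine receptor Drd1, or of the indirect pathway, marked by Drd2. Morphine also drives release of adrenal glucocorticoids, whose receptor is a transcription factor that binds DNA as a dimer. Strong synaptic input, in turn, raises immediate early genes through the cAMP response element and the serum response element.

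Each value is a log2 difference from a baseline, as deposited. The saline arrays form 3 mirror pairs (1 and 2, 3 and 4, 5 and 6) that sum to 0 in every row within 1e-06. The mean and median of the saline arrays are therefore 0 for every probe set, and saline is described by its lowest and highest array. The 6 saline arrays carry only 3 independent values, so a fit that counts a mirror pair once was run beside the first, and its count, or the gene it loses, is given for each list where it differed. Over the tested probe sets the SD within an array was 0.052 to 0.0845 in saline and 0.124 to 0.151 in morphine, and array medians lay within 0.0153 of 0. Saline arrays are centred on the mean of their own pair, which narrows their range, and morphine arrays are not. The wider SD in morphine and a lack of overlap between groups are thus partly set by how the values were built. The labelled tissue was checked by the rounding of the deposited numbers, which shows whether values of 8 or more were stored before the baseline was subtracted. That class depends on the probes as well as on the level. Of the 19 probe sets for markers shared by striatal projection neurons, 18 were in that class, against 24.5% of all tested probe sets. Of the choroid plexus markers, 0 of 20 were in it, as were 0 of 13 probe sets for thalamus and septum and 4 of 11 for cortical excitatory neurons. Other striatal lists were uneven, with 3 of 9 direct-pathway, 4 of 6 indirect-pathway and 4 of 11 interneuron probe sets in it. The class also held 10 of 13 astrocyte and 11 of 14 oligodendrocyte probe sets, so it does not single out striatum.

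At an adjusted p under 0.05 limma called 534 probe sets, 2.45% of those tested, and 3360 (15.4%) had an unadjusted p under 0.05. Of these, 284 were higher after morphine (1.3%) and 250 lower (1.15%). Counting mirror pairs once left 310 calls (1.42%), 180 higher (0.826%) and 130 lower (0.597%), and all 310 were among the 534. Quantile normalization between arrays, which forces the arrays to 1 distribution of values, left 56 higher and 14 lower. It was run on the deposited differences, where saline arrays are narrower, so it widens saline values and narrows morphine ones. Whether a call is lost through this rescaling, here and below, cannot be told. Among the rises 35 reached 1.5-fold and 7 reached 2-fold, among the falls 8 and 0 did, and 110 rises and 156 falls stayed under 1.2-fold. The median size of a called difference was 0.295 (log2) for rises and 0.238 for falls. The morphine arrays lay wholly above the saline arrays for 855 probe sets (3.93%) and wholly below them for 908 (4.17%), and 276 of the called rises and 243 of the called falls were among these. The narrowed saline range makes such a separation easier to reach. Of the falls 45.2% were in the class stored at 8 or more, as were 19.7% of the rises and 24.3% of probe sets not called. Single morphine arrays weighed on the count. Without morphine array 3 the calls numbered 219, without array 2 500 and without array 1 1092. Without saline arrays 1 to 6 in turn they numbered 323, 287, 343, 314, 367 and 359. Each saline array repeats its mirror with the sign changed, so leaving out 1 of them takes away no independent value. Calls lost without a single saline array, here and below, therefore do not show the weight of that array. Of the called falls, morphine array 1 held the value nearest to saline for 145 of 250.

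**Figure D1:**
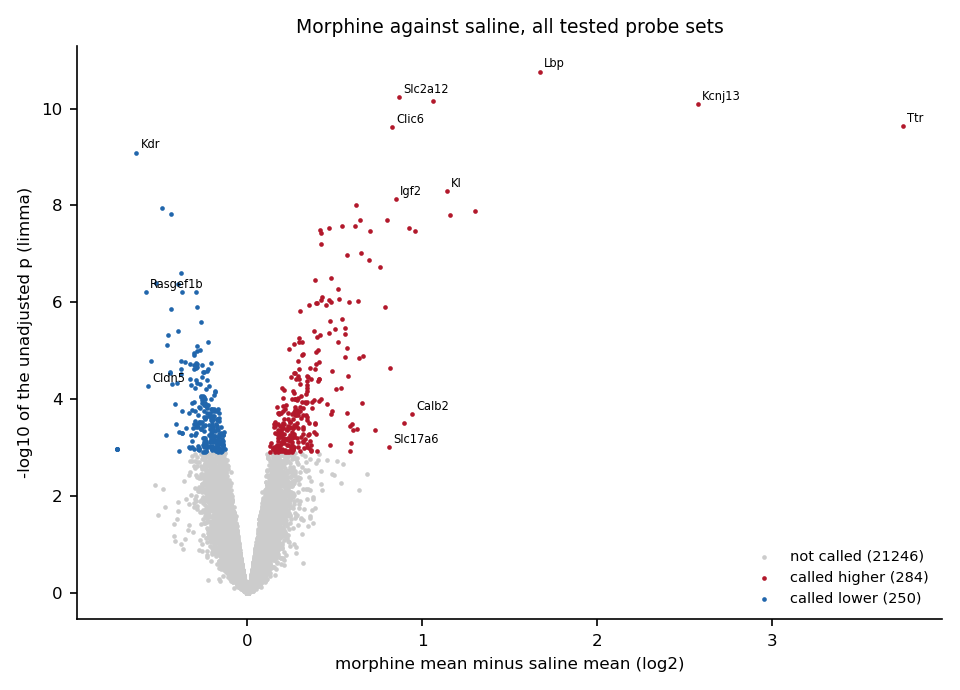
Each point is 1 of the 21780 tested probe sets, with the morphine mean minus the saline mean (log2) on the horizontal axis and -log10 of the unadjusted limma p on the vertical axis. The 284 called rises (red) reach 3.75 for Ttr, and the 250 called falls (blue) all lie above -1.

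Genes that glucocorticoids induce were among the clearest rises, and promoters were searched for the element their receptor binds. A relaxed glucocorticoid response element, the half-sites GNACA and TGTNC with 3 bases between them, was searched on both strands of the RefSeq promoters (GRCm38.p6, 250 bases before to 50 bases after each gene start). The table held 19113 promoters of 15560 tested genes. The element was in 78 of them (0.408%), in 7 of 285 promoters of genes called higher (2.46%) and in 0 of 274 promoters of genes called lower. Among the promoters of the glucocorticoid-responsive list it was in 3 of 36 (8.33%), of which 1 belonged to a gene called higher (Sgk1) and 2 to genes not called (Map3k6 and Mt1). The other called members of the list did not hold it in these windows, and the remaining matches among rises were in genes outside the list. Among the promoters of the choroid plexus list it was in 0 of 23. The full cAMP response element, TGACGTCA, was in 2.38% of all promoters, 2.11% of those called higher and 2.92% of those called lower. It was in 5 of 51 promoters of the immediate early and activity-induced lists (9.8%). A serum response element was in 1 promoter of a gene called higher, and the E-box CACGTG in 7.37% of those called higher against 8.26% of all. These are matches of letters and not measured binding sites. The stretches below are printed 5′ to 3′ on the strand of the gene, with the matched element in capitals. They are those of the 6 genes called higher that hold the first element, followed by the pair of genes on the glucocorticoid-responsive list that hold the second. Fam107a holds the element in both of a pair of overlapping promoters, and 1 is printed. The rises of these genes ran from 1.06 for Sgk1 and 0.57 for Txnip through the potassium channel Kcna5 (0.30), the phosphatase-like gene Ptpdc1 (0.28) and salivary amylase Amy1 (0.24) to the actin-bundling gene Fam107a (0.15).
Sgk1, chr10:21993672-21993744, plus strand: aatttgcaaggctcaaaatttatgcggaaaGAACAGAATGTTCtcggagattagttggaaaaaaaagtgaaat
Txnip, chr3:96557755-96557827, plus strand: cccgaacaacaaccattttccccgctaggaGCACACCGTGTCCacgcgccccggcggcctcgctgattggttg
Kcna5, chr6:126535572-126535644, minus strand: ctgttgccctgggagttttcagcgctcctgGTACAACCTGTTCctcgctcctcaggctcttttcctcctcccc
Ptpdc1, chr13:48593500-48593572, minus strand: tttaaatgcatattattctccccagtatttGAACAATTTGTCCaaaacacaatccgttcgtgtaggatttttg
Fam107a, chr14:8309855-8309927, minus strand: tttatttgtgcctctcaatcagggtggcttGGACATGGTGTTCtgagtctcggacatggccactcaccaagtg
Amy1, chr3:113577924-113577996, minus strand: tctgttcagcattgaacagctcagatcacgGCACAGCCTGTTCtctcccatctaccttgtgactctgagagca
Dusp1, chr17:26508578-26508645, minus strand: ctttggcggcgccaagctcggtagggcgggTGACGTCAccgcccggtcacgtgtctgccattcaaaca
Errfi1, chr4:150854989-150855056, plus strand: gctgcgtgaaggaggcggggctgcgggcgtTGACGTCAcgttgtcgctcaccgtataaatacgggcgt

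With 1 value per gene, the mean of its probe sets, 2.66% of 19935 genes were called, 1.37% higher and 1.29% lower, and counting mirror pairs once called 1.7%, 0.948% higher and 0.747% lower. These shares stand behind each list count that follows. Of 29 measured genes on the glucocorticoid-responsive list, 17 rose and 0 fell. The list's median difference was 0.32, beside -0.004 over all genes, and 27 of 29 members lay above the saline mean, as did 47.8% of all genes. With mirror pairs counted once 16 rose, the exception being Bcl6 (adjusted p = 0.0598), and 13 rose without morphine array 3. Quantile normalization left 11. The mean over the list was 0.37, 0.38 and 0.34 in morphine arrays 1, 2 and 3, against -0.02 to 0.02 over the saline arrays.

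Sgk1 encodes the serum- and glucocorticoid-regulated kinase, and one of its promoters is shown first above. Its probe set read 0.99, 1.12 and 1.08 in the morphine arrays, against saline arrays from -0.09 to 0.09. The 3 pools lay close together and far above saline (1.06 ± 0.07, SD, n = 3, limma adjusted p = 4.33e-07). Zbtb16, a zinc finger transcription factor, read 1.05, 0.75 and 0.98 (saline -0.14 to 0.14, adjusted p = 3.13e-05). Klf15, a Krüppel-like factor that couples glucocorticoids to amino acid and glucose use, read 0.59, 0.52 and 0.44 (adjusted p = 0.000268). Both lay above 0 in every morphine array, as did all 284 called rises. Fkbp5, the co-chaperone that limits the glucocorticoid receptor, read 0.60, 0.49 and 0.46 and Tsc22d3, a steroid-induced leucine zipper gene, read 0.31, 0.58 and 0.55. Nfkbia, the inhibitor that holds NF-kappaB in the cytoplasm, read 0.51, 0.71 and 0.70 (adjusted p = 2.11e-05). None of these overlapped the saline arrays, which was a condition for naming Sgk1, Zbtb16 and other leading rises.

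Further rises on the list covered stress signalling and metabolism. Errfi1, a feedback inhibitor of the epidermal growth factor receptor, was 0.48 above saline, Ddit4, an inhibitor of mTOR signalling, 0.54, and the phenol sulfotransferase Sult1a1 0.42. The lipid droplet coat protein gene Plin4 was 0.50 above saline, the hypoxia-inducible factor gene Hif3a 0.29 and the engulfment receptor Mertk 0.38. Bcl6, a transcriptional repressor, read 0.47, 0.10 and 0.38, with array 2 just above the highest saline array (0.09). Members that did not pass included the metallothioneins Mt1 (0.16, adjusted p = 0.0598) and Mt2 (0.20, adjusted p = 0.0814), Klf9 (0.14), glutamine synthetase Glul (0.05), and Cebpb (0.03). Tgm2 (-0.04) and Angptl4 (-0.03) were the members below the saline mean. Rasd1, a small G protein named for its induction by dexamethasone, was not on the list and was picked out after its values were seen. It read 0.41, 0.84 and 0.66 (adjusted p = 0.0035).

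**Figure D2:**
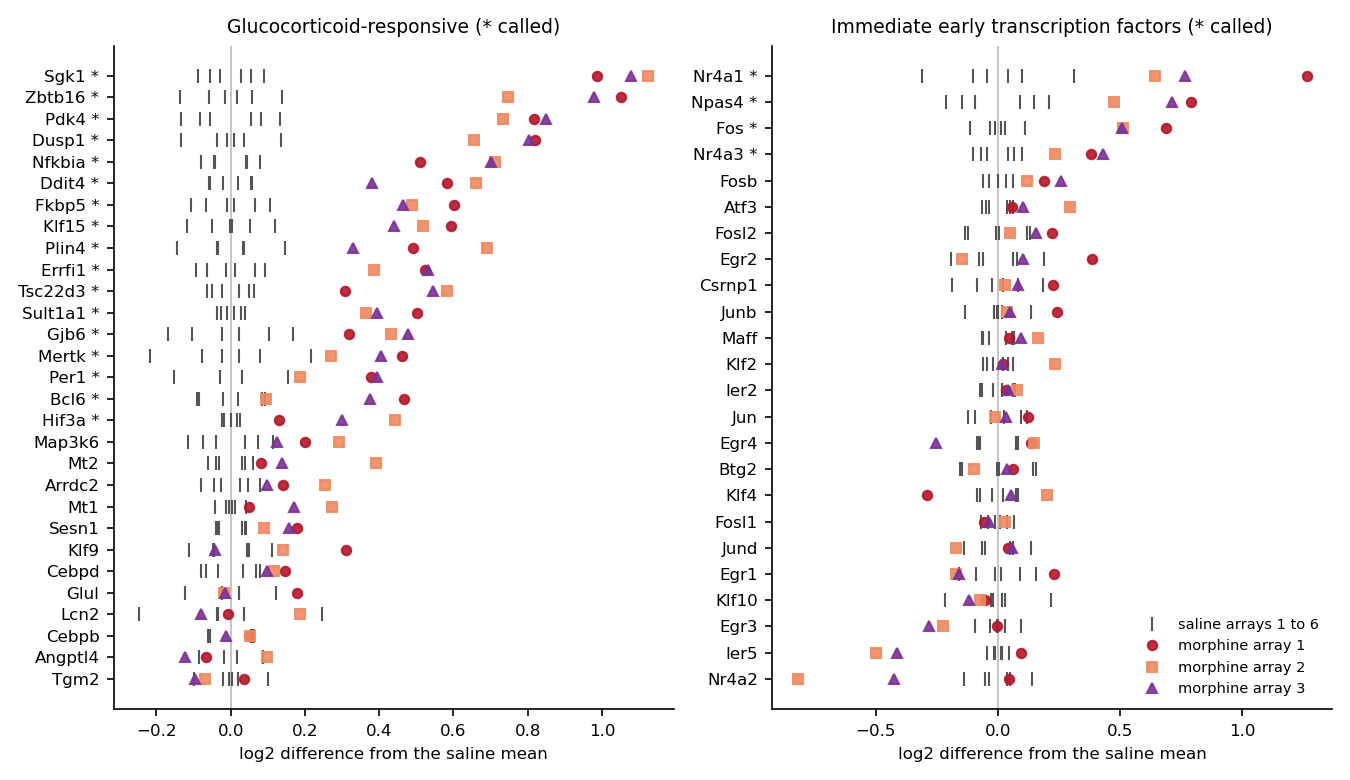
Log2 difference from the saline mean for each measured gene of the glucocorticoid-responsive list (left, 29 genes) and of the immediate early transcription factors (right, 24 genes); black ticks are the 6 saline arrays, coloured symbols the 3 morphine arrays, and an asterisk marks a gene called by limma. On the left 17 genes are called, led by Sgk1, and on the right 4, while Nr4a2 ranges from 0.05 in array 1 to -0.82 in array 2.

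Genes of fuel use rose in part. Of 22 genes on the array 5 rose and 0 fell, and the median over the list was 0.022. Slc2a12, a glucose transporter, read 0.81, 0.87 and 0.93 against saline arrays from -0.07 to 0.07 (adjusted p = 4.33e-07). Pdk4, the kinase that shuts pyruvate dehydrogenase and so spares glucose, read 0.82, 0.73 and 0.85 (adjusted p = 2.71e-05). The adiponectin receptor Adipor2 read 0.64, 0.65 and 0.80, while its relative Adipor1 was at 0.00. The glucose transporter of the blood-brain barrier, Slc2a1, read 0.52, 0.51 and 0.36. Txnip, an arrestin-like protein that restrains glucose uptake and whose promoter is printed above, read 0.47, 0.69 and 0.55, and did not pass after quantile normalization (adjusted p = 0.181). The kinases Pdk1 (-0.10), Pdk2 (0.09) and Pdk3 (0.01), the fatty acid importer Cpt1a (0.05) and hexokinase 2, Hk2 (-0.08), did not pass.

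Few of the immediate early transcription factors passed. Of 24 on the array 4 were called higher and 0 lower, and the median was 0.07. Fos, a subunit of the AP-1 factor, read 0.69, 0.51 and 0.51 against saline arrays from -0.11 to 0.11 (adjusted p = 0.0166). Npas4, which neurons switch on with calcium influx, read 0.79, 0.47 and 0.72 (adjusted p = 0.00279). The orphan nuclear receptor Nr4a1 read 1.26, 0.65 and 0.77 with saline arrays from -0.31 to 0.31 (adjusted p = 0.0245 over probe sets), and Nr4a3 read 0.38, 0.23 and 0.43 (adjusted p = 0.0427). These 4 lay above saline in every morphine array, a condition for naming Nr4a1 as a leading rise. The highest value was in array 1 for Fos, Npas4 and Nr4a1. The third member of the Nr4a family, Nr4a2, read 0.05, -0.82 and -0.42 (adjusted p = 0.157). The Egr factors lay on either side of saline, with Egr1 at 0.23, -0.17 and -0.16, Egr2 at 0.39, -0.15 and 0.10 and Egr3 at 0.00, -0.22 and -0.28. Fosb (0.19), Jun (0.05) and Junb (0.11) did not pass.

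The count for these factors changed with most alternatives. They had 0 rises after quantile normalization and 1 with any of the 3 mirror pairs of saline arrays left out. They had 1 rise without morphine array 3, where Fos had adjusted p = 0.0518, Nr4a1 0.067 and Nr4a3 0.174, and 2 rises with 3 falls without morphine array 1. Nr4a1 did not pass without morphine array 1 either (adjusted p = 0.057), nor did Nr4a3 without that array (0.0768) or any single saline array (0.0573 to 0.0872).

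Of 25 effector genes that activity induces, 5 were called higher and 2 lower, and the median was 0.016. Dusp1, the phosphatase that switches off MAP kinases and whose promoter is printed above, read 0.82, 0.66 and 0.80 (adjusted p = 0.000142) and is on the glucocorticoid-responsive list too. Sik1, a kinase that restrains CREB-driven transcription, read 0.36, 0.42 and 0.40 (adjusted p = 0.000402). The growth arrest and DNA damage gene Gadd45g was 0.26 above saline and the pseudokinase Trib1 0.26. Arc, which removes AMPA receptors from synapses, read 0.93, 0.41 and 0.47 (adjusted p = 0.0254), and no longer passed without morphine array 1 (adjusted p = 0.0571), morphine array 3 (0.054), saline array 1 (0.0526) or saline array 4 (0.0504). Inhba, a subunit of activin, read -0.23, -0.40 and -0.32 (adjusted p = 0.0359, and 0.0532 with mirror pairs counted once), and the Ras-like gene Rasl11b read -0.28, -0.44 and -0.49. The neurotrophin Bdnf (-0.12), Homer1 (-0.22), the neurosecretory protein gene Vgf (-0.20) and Ptgs2 (0.03) did not pass. The adjusted p of Gadd45g was 0.0576 without morphine array 2 and that of Rasl11b 0.0521 without morphine array 3. Without morphine array 1 the falls numbered 5, with any mirror pair left out 3 rose and 1 fell, and after quantile normalization 2 rose and 0 fell.

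The choroid plexus, the epithelium that makes cerebrospinal fluid in the ventricles beside the striatum, gave the largest rises of all. Of 20 markers 18 were called higher and 0 lower, the median was 0.60, and all 20 lay above the saline mean. With mirror pairs counted once 16 rose, without Aqp1 (adjusted p = 0.06) and Steap1 (0.0804). These markers made up 7 of the 20 largest rises. In bulk RNA, more cells of a type and more RNA per cell cannot be told apart, here and in the results that follow.

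Ttr, the thyroid hormone carrier secreted by this epithelium, read 3.80, 3.79 and 3.65. Its saline arrays ran from -0.72 to 0.72, the widest saline range of the leading genes, from saline arrays 1 and 2. The morphine arrays were still far above it (3.75 ± 0.08, SD, n = 3, 13.4-fold, adjusted p = 8.84e-07). Quantile normalization left Ttr at 1.87 without a call (adjusted p = 0.166) and 14 of the list called. Kcnj13, a potassium channel of the apical membrane, read 2.80, 2.70 and 2.23 against -0.11 to 0.11 (5.96-fold, adjusted p = 4.33e-07). Kl, the ageing-related co-receptor Klotho, read 1.25, 1.21 and 0.96, and Sostdc1, a secreted inhibitor of BMP and Wnt signals, 1.14, 1.39 and 0.94. The folate receptor Folr1 read 1.06, 1.11 and 0.71, and the intracellular chloride channel gene Clic6 0.78, 0.88 and 0.83. Otx2, the homeobox factor that specifies the tissue, read 0.63, 0.83 and 0.90. The rule that picked these leading rises required their saline arrays to stay below the lowest morphine array. Smaller rises were in the tight junction genes Cldn1 (0.56) and Cldn2 (0.42), the water channel Aqp1 (0.34), the bicarbonate transporter Slc4a5 (0.47) and the insulin-like growth factor binding protein gene Igfbp2 (0.63). Ace (0.11) and Wfdc2 (0.04) did not pass.

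The rises of the choroid plexus markers were uneven in size and even between arrays, with list means of 0.88, 0.90 and 0.74 in morphine arrays 1, 2 and 3 against -0.05 to 0.05 in saline. Their part in the glucocorticoid-responsive, fuel and other rises in the same arrays was not tested. Of neighbouring lists, 1 of 12 ependymal genes rose (the adenylate kinase Ak7, at 0.48), while the ependymal master factor Foxj1 was at -0.01. Without morphine array 3 the adjusted p of Ak7 was 0.0957, and without a mirror pair of saline arrays it was 0.0709 to 0.0805. Of 12 genes of meninges and fibroblasts 2 rose: the growth factor Igf2, at 0.76, 0.96 and 0.82, and the matrix protein Ogn, at 0.22 (adjusted p = 0.0766 without saline arrays 1 and 2, and 0.0547 without 3 and 4). The collagens Col1a1 (-0.05), Col1a2 (0.00) and Col3a1 (0.03) did not pass.

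Other leading rises were of mixed function. Lbp, which binds bacterial lipopolysaccharide in plasma, read 1.63, 1.72 and 1.66 against saline arrays from -0.15 to 0.15 (3.19-fold, adjusted p = 3.74e-07). Of 22 inflammation and acute phase genes it and Nfkbia rose and 0 fell. The receptors that Lbp serves, Cd14 (-0.04) and Tlr4 (-0.01), did not pass, nor did the cytokines Il1b (-0.04), Tnf (-0.06) and Il6 (-0.01). Tiparp, a poly(ADP-ribose) polymerase induced by the aryl hydrocarbon receptor, read 0.65, 0.65 and 0.79 (adjusted p = 0.000102). Polr3e, a subunit of RNA polymerase III, read 0.93, 1.57 and 1.40 in one probe set (adjusted p = 2.38e-05) and 0.29, 0.22 and 0.00 in the other (adjusted p = 0.219), so its probe sets disagreed.

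**Figure D3:**
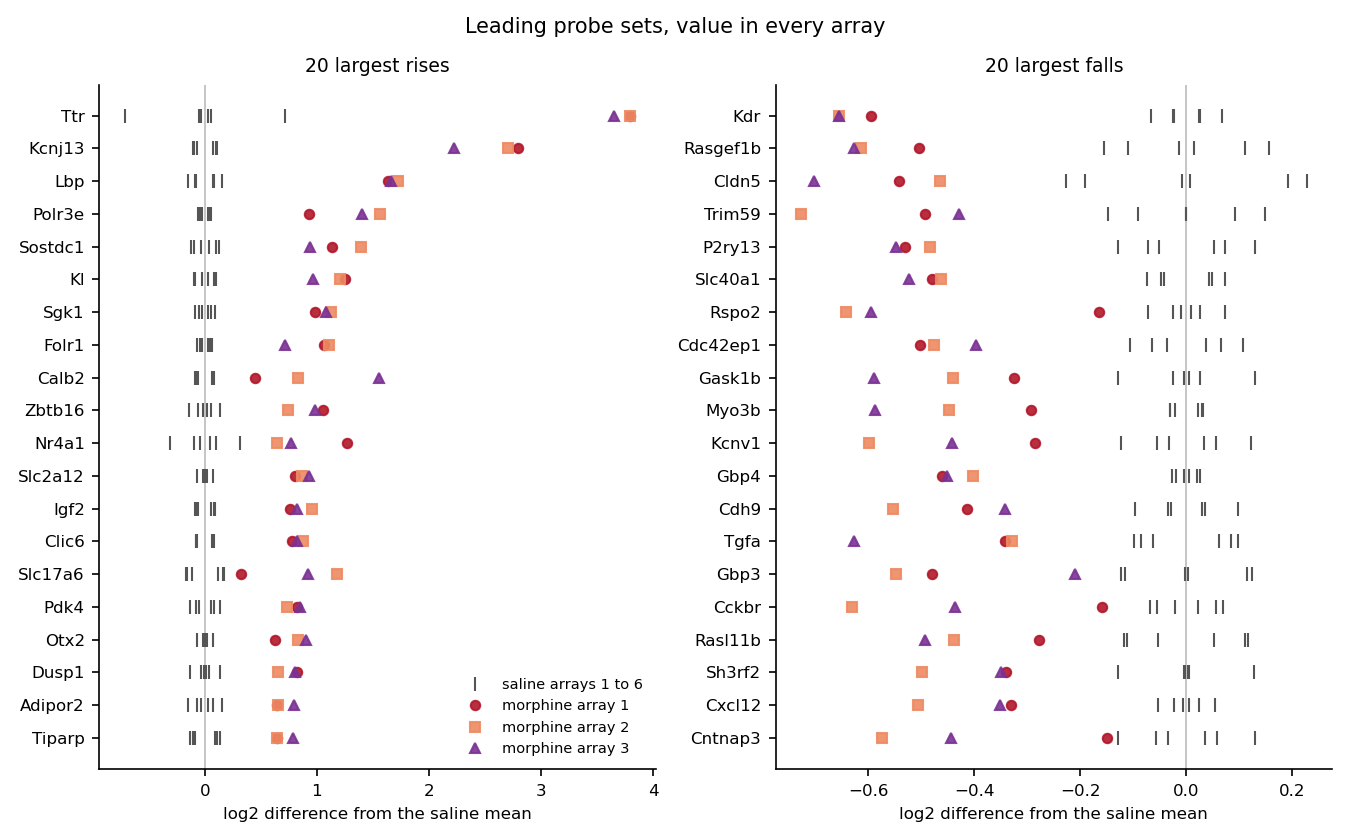
Log2 difference from the saline mean in every array for the 20 largest rises (left) and the 20 largest falls (right) among probe sets called by both limma fits and with no overlap between groups; black ticks are the 6 saline arrays and coloured symbols the 3 morphine arrays. The morphine arrays of Ttr sit between 3.65 and 3.80, and those of Calb2 spread from 0.44 to 1.55.

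Blood vessel genes moved the other way in part. Of 23 endothelial markers 6 fell and 2 rose, with a median of -0.12, and 21 of 23 lay below the saline mean. The falls numbered 4 to 5 with a mirror pair left out and 2 after quantile normalization, where the rises still numbered 2. Kdr, the main receptor for vascular endothelial growth factor, read -0.59, -0.65 and -0.66 against saline arrays from -0.07 to 0.07 (0.644 of saline, adjusted p = 2.51e-06). Its relative Flt1 read -0.33, -0.29 and -0.27, and the angiopoietin receptor Tek -0.39, -0.40 and -0.33. Each of these 3 receptors varied little between the pools. Cldn5, the tight junction protein of the blood-brain barrier, read -0.54, -0.46 and -0.70 (adjusted p = 0.00834, 0.0557 without morphine array 3 and 0.0521 without saline arrays 5 and 6). Eng, a co-receptor for transforming growth factor beta, was 0.31 below saline and Egfl7, a matrix protein of vessels, 0.21 below. The risers were both transporters of the barrier, Slc2a1 (0.46) and the lipid transporter Mfsd2a, which read 0.56, 0.36 and 0.25. General endothelial genes such as Pecam1 (-0.15), Cdh5 (-0.20), Tie1 (-0.07) and Vwf (-0.02) did not pass. The pericyte gene Rgs5 fell by 0.26, the 1 call among 11 genes of pericytes and vascular smooth muscle. It did not pass without saline arrays 1 and 2 (adjusted p = 0.0679), without 3 and 4 (0.0614) or after quantile normalization (0.151).

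Jag1, a Notch ligand, and Id3, an inhibitor of helix-loop-helix factors, were picked out after their values were seen, since they were called in every fit that left out 1 array or 1 mirror pair and with mirror pairs counted once. Jag1 read -0.34, -0.39 and -0.41 and Id3 -0.37, -0.37 and -0.39. In all, 130 probe sets met that condition, 86 higher and 44 lower. They held 17 of the 20 largest rises, the exceptions being Calb2, Nr4a1 and Slc17a6. They held 14 of the 20 largest falls, the exceptions being Cldn5, Rspo2, Gbp3, Cckbr, Rasl11b and Cntnap3. Others of the 130, likewise picked out afterwards, were the channel gene Trpm3 (0.61), the kinase partner Cab39l (0.54), the anion exchanger Slc4a2 (0.41) and the cilium genes Cfap44 (0.38) and Drc7 (0.49). The cilium gene Cfap43 stood at 0.42 in 1 probe set and at 0.14 to 0.32 in its other 4, and 2 of the 5 were not called (adjusted p = 0.0822 and 0.141). The tissue factor gene F3 (0.42) and the leukaemia inhibitory factor receptor Lifr (0.31) were also higher. The potassium channels Kcnj4 (-0.29) and Kcnh4 (-0.26) and the Rap exchange factor Rasgrp2 (-0.31) were lower.

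**Figure D4:**
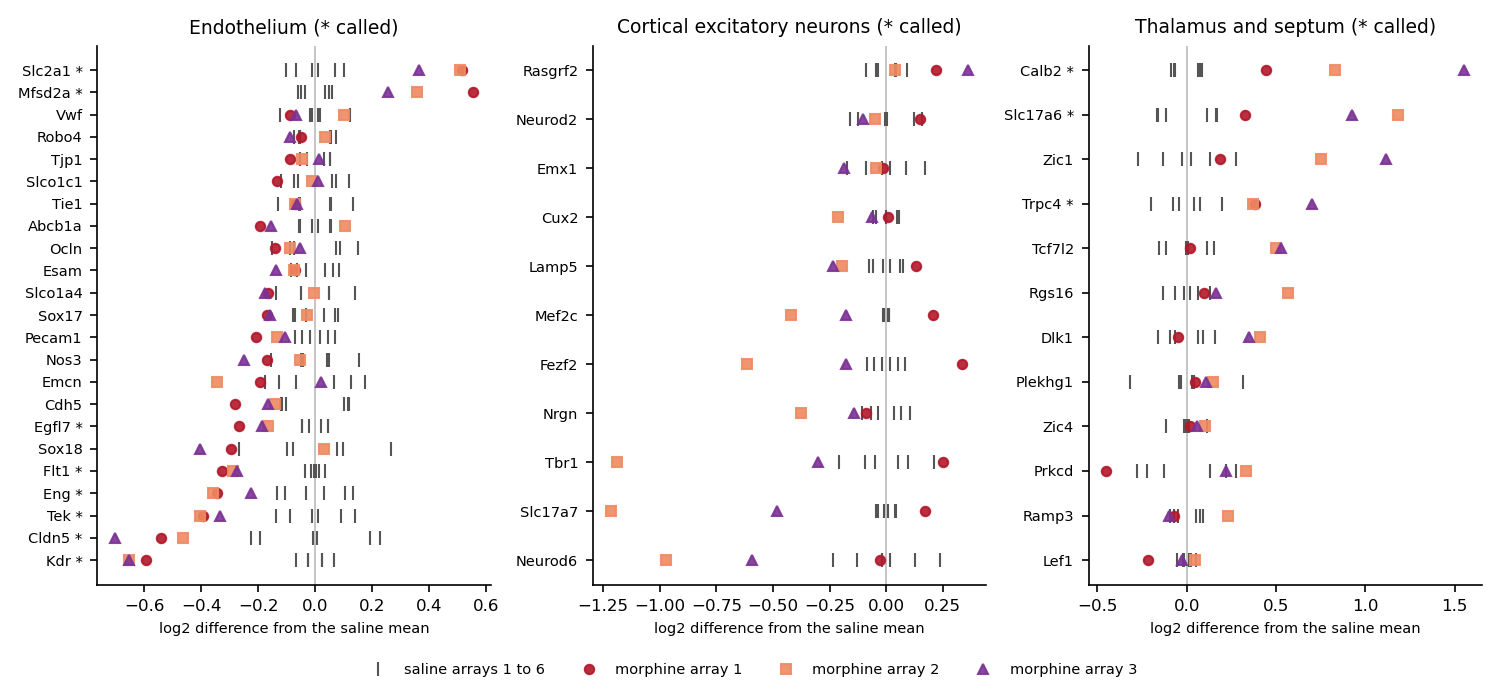
Log2 difference from the saline mean for each measured endothelial marker (left), cortical excitatory neuron marker (middle) and thalamus or septum marker (right); black ticks are the 6 saline arrays, coloured symbols the 3 morphine arrays, and an asterisk marks a gene called by limma. Endothelial receptors such as Kdr are low in all 3 arrays, while Slc17a7 ranges from 0.17 in array 1 to -1.22 in array 2.

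Microglia, the immune cells of the brain, had 3 falls and 0 rises among 16 markers, and all 16 lay below the saline mean. P2ry13, an ADP receptor, read -0.53, -0.48 and -0.55 against saline arrays from -0.13 to 0.13 (adjusted p = 0.000258), and the fractalkine receptor Cx3cr1 read -0.33, -0.23 and -0.34 (adjusted p = 0.00762). Itgam, an integrin of myeloid cells, was at -0.21 and passed in the first fit only (adjusted p = 0.0362, and 0.064 with mirror pairs counted once). After quantile normalization 1 of the list was called. Gpr34 (-0.05), Trem2 (-0.02) and C1qc (-0.01) did not pass. Slc40a1, the iron exporter ferroportin, which is not on the list, read -0.48, -0.46 and -0.52 against -0.07 to 0.07 (adjusted p = 2.28e-05). The interferon-inducible GTPases Gbp4 and Gbp3 read -0.46, -0.40 and -0.45 and -0.48, -0.55 and -0.21, and the adjusted p of Gbp3 was 0.0535 without morphine array 2. Among 13 astrocyte markers the connexin Gjb6 alone rose (0.32, 0.43 and 0.48; adjusted p = 0.264 after quantile normalization), and it is on the glucocorticoid-responsive list too. None of 14 oligodendrocyte markers was called by limma in the first fit.

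Markers of striatal projection neurons were lower by small amounts. Of 19 markers common to both pathways 10 fell and 0 rose, with a median of -0.17, and all 19 lay below the saline mean. Bcl11b, a transcription factor needed for these neurons to mature, read -0.27, -0.22 and -0.39 against saline arrays from -0.04 to 0.04 (adjusted p = 0.00197). Foxp1, a forkhead factor, read -0.16, -0.27 and -0.26, and the retinoic acid receptor Rarb -0.16, -0.28 and -0.36. The cannabinoid receptor Cnr1 read -0.23, -0.20 and -0.49, the lowest in array 3. The phosphodiesterase Pde10a was at -0.17, the adenylyl cyclase Adcy5 at -0.16 and the G protein Gnal at -0.19, while Ppp1r1b, the DARPP-32 gene, was at -0.12 and did not pass (adjusted p = 0.118). The count was fragile: 4 fell with mirror pairs counted once (Bcl11b, Rarb, Foxp1 and Cnr1), 1 without morphine array 3, 11 without morphine array 1, 1 to 3 with a mirror pair left out and 1 after quantile normalization.

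Markers of the single pathways were mostly below saline, 7 of 9 for the direct and 6 of 6 for the indirect pathway. None of the direct-pathway markers passed, with Drd1 at -0.16, -0.19 and -0.22, Pdyn, which encodes the dynorphin precursor, at -0.02, -0.16 and -0.22, and a median of -0.18. Of the indirect-pathway markers Drd2 (-0.13, -0.19 and -0.15, adjusted p = 0.0388) and the orphan receptor Gpr52 (-0.29, -0.27 and -0.27, adjusted p = 0.0442) fell, with a median of -0.15. Neither passed with mirror pairs counted once (adjusted p = 0.0722 and 0.0799), and 0 fell without morphine array 2 or morphine array 3 or after quantile normalization. The difference between the pathways was not tested. None of the 11 measured genes on the interneuron list passed, and the acetylcholine gene Chat was at -0.04 and Sst at -0.03. Calretinin, Calb2, was counted on the thalamus and septum list and not on this one.

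The opioid list held peptides, receptors and their signalling partners. Of 19 on the array 0 rose and 1 fell, and the median was -0.045. The mu receptor Oprm1 read -0.02, -0.06 and -0.04 against saline arrays from -0.13 to 0.13, inside the saline range in all 3 pools. The delta receptor Oprd1 was at -0.13, the kappa receptor Oprk1 at -0.06 and the nociceptin receptor Oprl1 at 0.22 (adjusted p = 0.0931). The enkephalin precursor Penk was at -0.09. Rgs4, which ends signalling of inhibitory G proteins, read -0.15, -0.25 and -0.21 (adjusted p = 0.0241, and 0.051 with mirror pairs counted once). It did not pass without saline array 2 (0.0573), morphine array 2 (0.0752) or morphine array 3 (0.095). Of 19 clock genes Per1, which glucocorticoids also induce, read 0.38, 0.19 and 0.39 (adjusted p = 0.0171, and 0.0934 without morphine array 3), but not after quantile normalization (0.566). Arntl, the BMAL1 gene, read -0.15, -0.30 and -0.27 and passed in the first fit only (adjusted p = 0.0487, and 0.0845 with mirror pairs counted once).

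Among the remaining leading falls were several signalling genes. Rasgef1b, an exchange factor for small G proteins of the Ras family, read -0.50, -0.61 and -0.63 against saline arrays from -0.16 to 0.16 (adjusted p = 0.000355). The chemokine Cxcl12 read -0.33, -0.51 and -0.35, the cadherin Cdh9 -0.41, -0.55 and -0.34, and the growth factor Tgfa -0.34, -0.33 and -0.63. The rule for leading falls required all 3 pools to lie below saline, and Tgfa was lowest in array 3. Trim59, a ubiquitin ligase, read -0.49, -0.73 and -0.43, the Cdc42 effector Cdc42ep1 -0.50, -0.48 and -0.40, the scaffold Sh3rf2 -0.34, -0.50 and -0.35, and the potassium channel subunit Kcnv1 -0.29, -0.60 and -0.44. Gask1b (-0.33, -0.44 and -0.59) and the myosin Myo3b (-0.29, -0.45 and -0.59) were nearest to saline in array 1. The cholecystokinin receptor Cckbr (-0.16, -0.63 and -0.44), the Wnt enhancer Rspo2 (-0.16, -0.64 and -0.60) and the adhesion gene Cntnap3 (-0.15, -0.57 and -0.44) were close to saline in array 1, and none of them passed without morphine array 3 (adjusted p of 0.0989, 0.143 and 0.125) or array 2 (0.0719, 0.108 and 0.0987). With single saline arrays left out, Rspo2 did not pass without any 1 of the 6 (0.0502 to 0.067), Cntnap3 without any 1 of saline arrays 1 to 5 (0.0502 to 0.0644), and Cckbr without saline array 2 (0.0549) or 4 (0.0527). Cntnap3 has 6 probe sets, and the value given is that of the 1 called. The other 5 stood between -0.25 and -0.10 (adjusted p of 0.0526 to 0.627).

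Cwc22, a splicing factor gene, accounts for 7 of the 250 falls by itself. It has 8 probe sets, and 7 of them agree within 0.0031 in every array, so they hold 1 measurement rather than 7. In the first of these the morphine mean was -0.75 (adjusted p = 0.0465), and the eighth stood at -0.47 (adjusted p = 0.19). Counting nearly identical probe sets of a gene once leaves 528 calls.

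Markers of tissue around the striatum differed between the 3 morphine pools. The mean over 11 cortical excitatory neuron markers was 0.12, -0.48 and -0.19 in arrays 1, 2 and 3, against -0.03 to 0.03 in saline. The vesicular glutamate transporter of cortex, Slc17a7, read 0.17, -1.22 and -0.48, the transcription factor Tbr1 0.25, -1.19 and -0.30 and Neurod6 -0.03, -0.97 and -0.59. None of the 11 was called by limma, and 5 fell without morphine array 1 (Slc17a7 then had adjusted p = 0.00531). The mean over 12 thalamus and septum markers was 0.06, 0.46 and 0.47. Calretinin, Calb2, read 0.44, 0.83 and 1.55 (adjusted p = 0.0193), the other vesicular glutamate transporter, Slc17a6, 0.33, 1.18 and 0.92 (adjusted p = 0.0458) and the channel Trpc4 0.38, 0.37 and 0.70. These 3 rose, and 1 did without morphine array 3, 5 without morphine array 1, 0 to 1 with a mirror pair left out and 1 after quantile normalization. Without any single saline array Slc17a6 did not pass (adjusted p of 0.0615 to 0.0912). Array 1 was thus closest to saline in thalamic markers and above it in cortical ones, while arrays 2 and 3 were low in cortical and high in thalamic markers. What this has to do with the falls that were smallest in array 1 was not tested.

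The spread over the morphine arrays reached 0.5 (SD, n = 3) for 17 probe sets, and for 0 in saline, where mirror pairs limit the SD and its highest value was 0.454. Among the 10 widest were Slc17a7, Tbr1 and Calb2, together with Vxn (0.28, -1.14 and -0.41) and Ccn3 (0.20, -1.04 and -0.41), whose arrays ran in the order of Slc17a7. The others were short noncoding RNAs and genes of ribosomes and RNA processing. The RNA of ribonuclease MRP, Rmrp, read 1.12, -0.21 and -0.81, and the Y RNA Rny3 -1.19, 0.21 and 0.51. The mitochondrial ribosome genes Mrpl42 (-0.11, -1.20 and 0.20) and Mrpl20 (0.26, -0.27 and -1.13) and the tRNA splicing gene Tsen15 (0.69, -0.52 and 0.06) each stood apart in a different pool. Of the 10, limma called Calb2 alone.

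**Figure D5:**
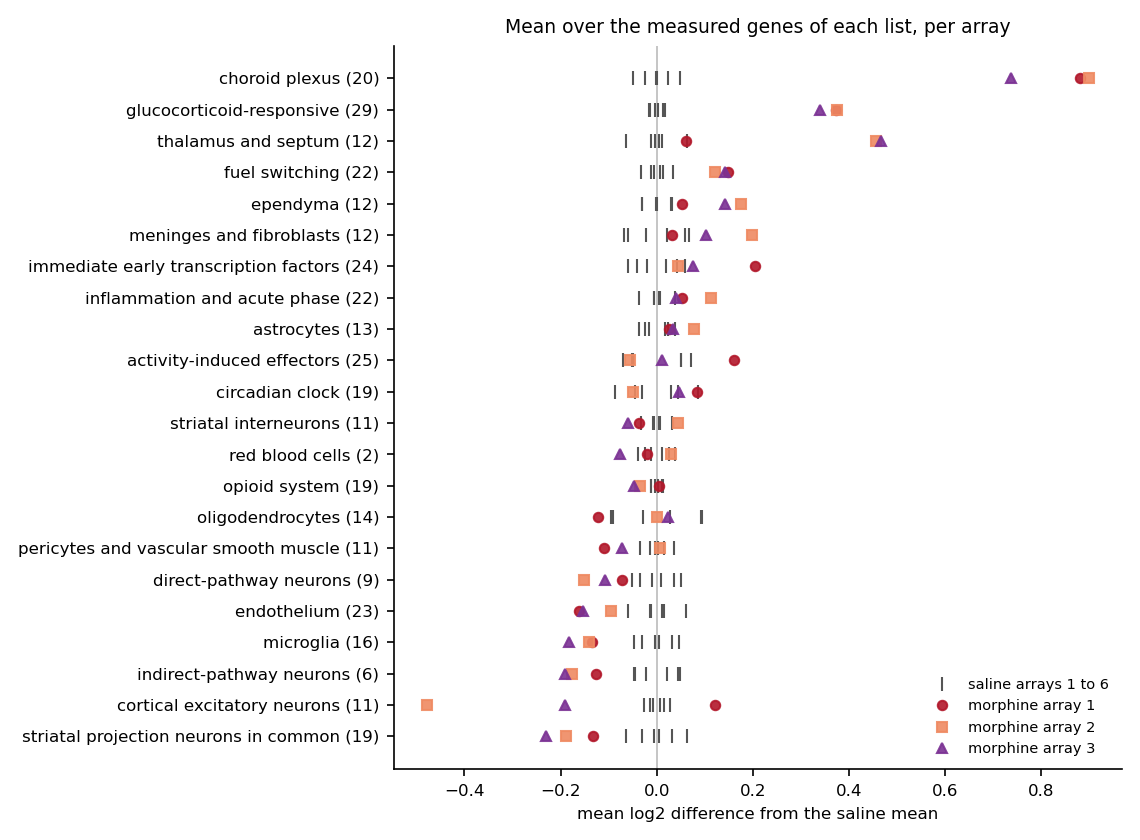
Mean log2 difference from the saline mean over the measured genes of each of the 22 lists (number of genes in brackets), 1 point per array; black ticks are the 6 saline arrays and coloured symbols the 3 morphine arrays. The choroid plexus list lies at 0.74 to 0.90 and the glucocorticoid-responsive list at 0.34 to 0.38, while the cortical list spreads from 0.12 to -0.48.

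The arrays with butyrate before morphine were set beside these values without a test against saline, since they share the saline arrays. Ttr read 3.63, 3.17 and 3.46 there, Sgk1 0.95, 1.18 and 1.01, Kdr -0.53, -0.57 and -0.67 and Slc2a12 0.54, 0.43 and 0.61. The difference between the butyrate-morphine and the morphine arrays was called by limma for 0 of 21780 probe sets. An unadjusted p under 0.05 was reached by 1898 (8.71%). The standard error of this difference pools the spread of the saline arrays, and the sources do not give the baseline of the treated arrays. The p-values of this difference are therefore not independent of the saline arrays. Slc2a12 was 0.34 lower with butyrate (adjusted p = 0.173), Kcnj13 0.51 lower (adjusted p = 0.409) and Dusp1 0.36 higher (adjusted p = 0.285). The absence of a call does not show that the groups were alike. The cortical marker Slc17a7 read -0.18, 0.11 and -0.09 in the butyrate-morphine arrays and Slc17a6 0.83, -0.06 and 0.32.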

How the data were processed

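Striatal RNA from 12 pools of 4 mice was measured on 12 arrays. The deposited table holds, per the file headers, 1 value per probe set and array, and the values used are log2 differences as deposited. The sources used here do not give their log base, background correction, normalization or summarisation, nor the baseline of each morphine array. The base was read from the rounding of the numbers. Of 28815 rows, 21780 had exactly 1 symbol in the platform annotation, 1605 several and 5430 none. RefSeq IDs matched 21689 rows and changed 0 symbols.

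Groups came from the array titles. Group means were fitted over all 12 arrays with limma 3.58.1 in R 4.3.3 (lmFit and eBayes, 9 residual and 3.87 prior degrees of freedom), with Benjamini-Hochberg adjustment over all tested probe sets and a threshold of 0.05. Genes on lists were the mean of their probe sets, adjusted over 19935 genes. A gene given in connection with a list has that p, and a leading gene the p over probe sets. The median standard error was 0.0508, and it depends on the spread of each probe set as well as on the number of arrays. In the alternative with mirror pairs counted once, saline arrays 1, 3 and 5 were kept, multiplied by the square root of 3, with the saline mean fixed at 0. That factor assumes that each treated array was centred on the mean of a saline pair. With another baseline it would not match the spreads, so counts from this alternative rest on that assumption. Both fits were also run on simulated arrays with normal noise, where each treated array was centred on the mean of a saline pair. The sources do not give that baseline, so the simulation cannot show how the fits behave on the deposited values.

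Named genes are the 20 largest rises and falls called by both fits without overlap between groups, the 10 lowest p-values, the 10 highest SDs over morphine arrays, and from each of 22 lists up to 6 called members, or else 2. Predicted genes and olfactory receptors were passed over. Other list members were given to describe their families. The comparison, the lists and the rule were chosen with earlier results of these data known. The sources used here do not say whether pools came from separate cohorts, and p-values thus cover only the spread between these pools, which may be technical. Promoter sequences are from RefSeq (GRCm38.p6), with 30 bases on either side of the element or as far as the gene start.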

Additional observations from a re-analysis of the deposited data

Results flagged for a closer look

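Some rows of the table that the comparison left out were called in a separate limma fit over all 28815 rows. That fit, with its own adjustment, called 506 rows at the same threshold. Of 5430 probe sets with no gene symbol, 44 passed in it, 32 higher and 12 lower after morphine. Of 1605 probe sets with several symbols, 22 passed, 10 higher and 12 lower. Both are smaller shares than 506 of 28815. These rows enter none of the comparisons by gene, and they are given as counts, since no single gene can be assigned to them.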

How the results depend on the processing

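Counts are given as all calls, then higher, then lower, beside 534, 284 and 250. Quantile normalization gave 70, 56 and 14, mirror pairs counted once 310, 180 and 130, the morphine arrays against 0 290, 163 and 127, and only probe sets stored at 8 or more 202, 65 and 137. An adjusted p under 0.01 gave 151, 96 and 55 and under 0.1 1015, 496 and 519. Without saline arrays 1 and 2 the counts were 146, 90 and 56, without 3 and 4 161, 101 and 60, and without 5 and 6 196, 117 and 79. Leaving out 1 array gave 219 to 1092, 127 to 435 and 92 to 657. Calls in every fit with an array or a mirror pair left out, chosen after seeing the data, numbered 130. The replicate number as a block gave 49, 41 and 8. Same-numbered saline and morphine arrays correlated in their deviations at -0.002, -0.18 and 0.20. These values cannot decide whether the numbers pair the arrays. Saline arrays 1 and 2 mirror each other, and each saline value is centred on its own pair. Median centring, the 9 arrays alone, robust eBayes, array weights, all rows and 1 value per gene stayed within 1.5 times. Of 73 named genes called, 48 kept the call with each array left out and 0 changed sign in any of 22 alternatives. Quantile normalization kept 31 of the 73 and mirror pairs counted once kept 66. Centred values show no signal over background, so dim probe sets could not be filtered other than by rounding class, where the median standard error was 0.0509 at 8 or more and 0.0513 at 4 to 8.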
